A study of Mus musculus with 63 samples.

Results

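Of 24766 genes in the deposited expression table, 10 were examined here: the WNT ligand genes Wnt3, Wnt6, Wnt10a, Wnt5a and Wnt2b, the Frizzled receptor genes Fzd3, Fzd5, Fzd6 and Fzd7, and the co-receptor gene Lrp6. They were picked by symbol, and each symbol matched 1 gene. The study asked how the clones of polyclonal intestinal tumours differ. It profiled RNA from 63 dissected small intestinal tumour samples of 2 mice, 1 female and 1 male. Both mice were of the genotype labelled Apchet (Villin-creER;Apc fl/+;Rosa Confetti), in which a tamoxifen-dependent Cre, driven by the Villin promoter in the intestinal epithelium, removes 1 Apc allele and switches on a multicolour reporter. Both had received 4 mg tamoxifen when older than 8 weeks and the mutagen ENU at 200 mg/kg 10 days later, so no group was untreated, and with 1 mouse per sex, sex and mouse cannot be told apart. From 20 tumours, 10 in each mouse, 2 clones were dissected and sequenced separately, giving 20 major and 20 minor clones as the study classed them. The other 23 tumours (10 female, 13 male) were sequenced undivided. The study set its clones against 20 monoclonal tumours from 2 mice, and the 23 were not matched to those 20 here. SI10, SI20 and SI30 are the segment labels of the small intestine, and SI30 held only 2 divided tumours of the female mouse. Tumour 22 of the female mouse carried 2 segment labels, SI20 for its major and SI10 for its minor clone.

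WNT ligands are secreted proteins that bind a Frizzled receptor and, in the canonical branch, the co-receptors LRP5 or LRP6 at the cell surface. Binding stops the destruction complex, of which APC is a scaffold, from degrading β-catenin, which then activates target genes with TCF/LEF factors. Loss of APC stabilises β-catenin below the receptor. In the healthy crypt, Wnt3 is made by Paneth cells and Wnt2b by the surrounding mesenchyme, both as canonical ligands that sustain stem cells, and Wnt5a is a stromal ligand best known for non-canonical signalling. Fzd5 and Fzd7 are epithelial receptors of canonical signals in the crypt, whereas Fzd3 and Fzd6 are best known from planar cell polarity.

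Promoter sequences, 250 bases upstream of the gene start, were matched for 5 of the 10 genes (Fzd7, Fzd5, Wnt6, Wnt2b and Wnt3) in RefSeq (GRCm38.p6), and not for Wnt10a, Wnt5a, Fzd3, Fzd6 and Lrp6. Both strands were searched for the TCF/LEF heptamers CTTTG followed by AA, AT, TA or TT. Among 32851 mouse promoters of this length, 14.8% held at least 1. Of the 5 matched genes, Fzd7 held 1, on the strand opposite to the gene, starting 130 bases before the gene start (position -130). Its promoter is shown with the match in capitals, beside those of Wnt3 and Wnt2b, the ligands with the widest gaps between clones, which held none of the 4 heptamers. The intervals, 5′ to 3′ along the gene, were chr1:59481897-59482146 (Fzd7, plus strand), chr11:103773925-103774174 (Wnt3, plus strand) and chr3:104961710-104961959 (Wnt2b, minus strand).
Fzd7: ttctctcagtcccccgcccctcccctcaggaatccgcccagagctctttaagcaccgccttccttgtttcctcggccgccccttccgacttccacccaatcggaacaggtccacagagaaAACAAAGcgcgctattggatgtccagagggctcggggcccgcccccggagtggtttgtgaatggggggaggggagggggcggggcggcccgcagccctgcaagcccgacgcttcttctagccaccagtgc
Wnt3: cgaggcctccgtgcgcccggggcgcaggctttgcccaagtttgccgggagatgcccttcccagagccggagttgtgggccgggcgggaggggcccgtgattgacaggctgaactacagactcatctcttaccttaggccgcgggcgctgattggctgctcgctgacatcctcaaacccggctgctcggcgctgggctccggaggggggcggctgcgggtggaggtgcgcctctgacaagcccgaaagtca
Wnt2b: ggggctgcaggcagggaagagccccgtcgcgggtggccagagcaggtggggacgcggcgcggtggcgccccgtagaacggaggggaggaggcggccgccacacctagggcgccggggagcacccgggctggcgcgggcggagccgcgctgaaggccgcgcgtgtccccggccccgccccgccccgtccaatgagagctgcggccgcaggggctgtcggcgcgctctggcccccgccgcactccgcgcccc
The 5 promoters were 65.2% to 80.8% G and C, against a median of 52.4% over all promoters. Their ratio of observed to expected CpG was 0.649 to 0.908, against a median of 0.373.

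All 10 genes were measured in the tumours, over a range of more than 2 orders of magnitude per exon length. The values are the authors' normalised counts, gene level estimates scaled between libraries. The scaled libraries summed to between 2.61e+07 and 4.59e+07, the read depth before scaling was not given in the sources used here, and all 8 epithelial marker genes (such as Epcam, Krt8 and Cdh1) were above 0 in every group. Per kilobase of exon, the median normalised count over the 63 libraries was 289 for Fzd5, 123 for Wnt6, 112 for Fzd7, 106 for Lrp6, 105 for Fzd6, 35.3 for Wnt5a, 20.0 for Fzd3, 13.1 for Wnt3, 12.2 for Wnt10a and 2.42 for Wnt2b. The exon length was the union over all annotated transcripts of a gene, and another length would change these values. By this measure Fzd5 was the highest of the 10 and lay above Wnt6 in 57 of 63 libraries. Wnt6, Fzd7, Lrp6 and Fzd6 could not be ordered: each exceeded the next in only 30 to 35 of 63 libraries. Fzd6 exceeded Wnt5a in 61 libraries, Wnt5a exceeded Fzd3 in 46 and Fzd3 exceeded Wnt3 in 41. Wnt3 exceeded Wnt10a in 31 libraries, so their order was not fixed either, and Wnt10a exceeded Wnt2b in 60. Wnt2b was listed at 0 in 2 minor clones and in 3 undivided tumours.

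**Figure D1:**
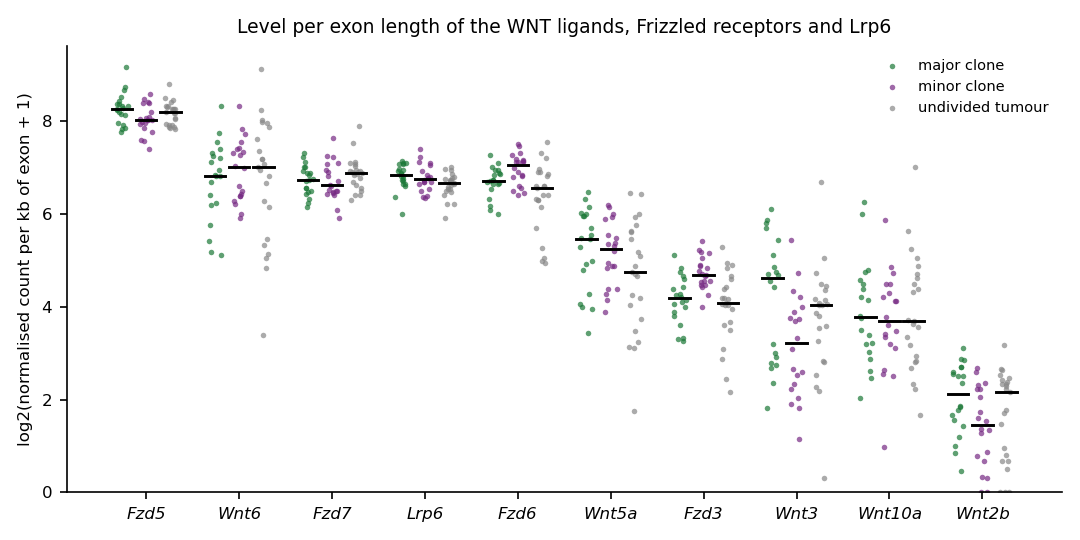
Level of each gene per kilobase of exon, as log2(normalised count per kb + 1) on the vertical axis. Each point is 1 library of the major clones (20), minor clones (20) or undivided tumours (23), and the black bars are medians. Fzd5 lies highest and Wnt2b lowest, and the ligands spread more widely between libraries than Fzd5, Fzd7 and Lrp6.

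In the annotation of the same build as the files (GRCm39), Wnt6 (chromosome 1, 74810922 to 74824975) and Wnt10a (chromosome 1, 74830675 to 74844355) lay on the plus strand 5699 bp apart with 0 protein-coding genes between them. Fzd3 spanned 65429573 to 65499933 on chromosome 14, Fzd6 38869243 to 38901584 on chromosome 15, Wnt3 103664976 to 103708853 on chromosome 11 and Wnt2b 104851289 to 104869237 on chromosome 3. Wnt3, Wnt2b and Fzd3 each overlapped a noncoding gene of the same strand (Gm73057, Gm43846 and Gm54523), whose reads could be shared with them.

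Between the clones of a tumour, 1 of the 10 genes passed the test: Fzd3 fell from the minor to the major clone. Its normalised count ranged from 114 to 449 in the major clones (median 228) and from 199 to 550 in the minor clones (median 330). The 2 groups overlapped, yet the major clone was the lower of the pair in 17 of 20 tumours. The exceptions were tumour 19 of the female mouse (449 in the major and 366 in the minor clone) and tumours 22 (343 and 300) and 31 (365 and 281) of the male mouse. The fitted difference, major minus minor clone with the tumour as a block, was -0.62 on the log2(normalised count + 1) scale (SE 0.13, 95% interval -0.89 to -0.34, n = 20 tumours, limma, adjusted p = 0.0352 over all genes). The widest gap was in tumour 26 of the female mouse, with 114 in the major and 468 in the minor clone. The mean difference was -0.59 in the female and -0.65 in the male tumours, and the term for a difference between mice was 0.06 (SE 0.27, limma, adjusted p = 0.977). Of all 16428 genes tested in this comparison, 1.14% passed the same threshold of 0.05. An unadjusted p under 0.05 was found for 5 of the 10 genes and for 22.4% of all genes.

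The call of Fzd3 was close to the threshold. It was lost when any 1 of 8 tumours was left out (22 and 26 of the female and 20, 23, 25, 26, 27 and 29 of the male mouse), with log2 differences from -0.67 to -0.54 over the 20 omissions. The highest adjusted p was 0.0687 (limma), without tumour 22 of the female mouse, the one with 2 segment labels. The call was also lost without the tumour block (adjusted p = 0.154, limma) and in an exact Wilcoxon signed-rank test per gene (adjusted p = 0.0579).

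Fzd6, the receptor nearest to Fzd3 in known function, lay in the same direction without passing. Its normalised count ranged from 434 to 1053 in the major clones (median 715) and from 582 to 1249 in the minor clones (median 909). The minor clone was the higher of the pair in 16 of 20 tumours, and the groups overlapped over most of their range. The log2 difference was -0.28 (SE 0.09, 95% interval -0.46 to -0.10, limma, adjusted p = 0.0770). Without tumour 31 of the male mouse, in which the major clone was higher (932 against 643), the adjusted p was 0.0428. In the other 19 omissions of 1 tumour Fzd6 was not called, with adjusted p values up to 0.138 (limma). Across the 20 tumours, the clone differences of Fzd3 and Fzd6 had a Pearson r of 0.67, centred within mouse, given as a description since both values share their libraries. In the 23 undivided tumours the same r was 0.45.

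**Figure D2:**
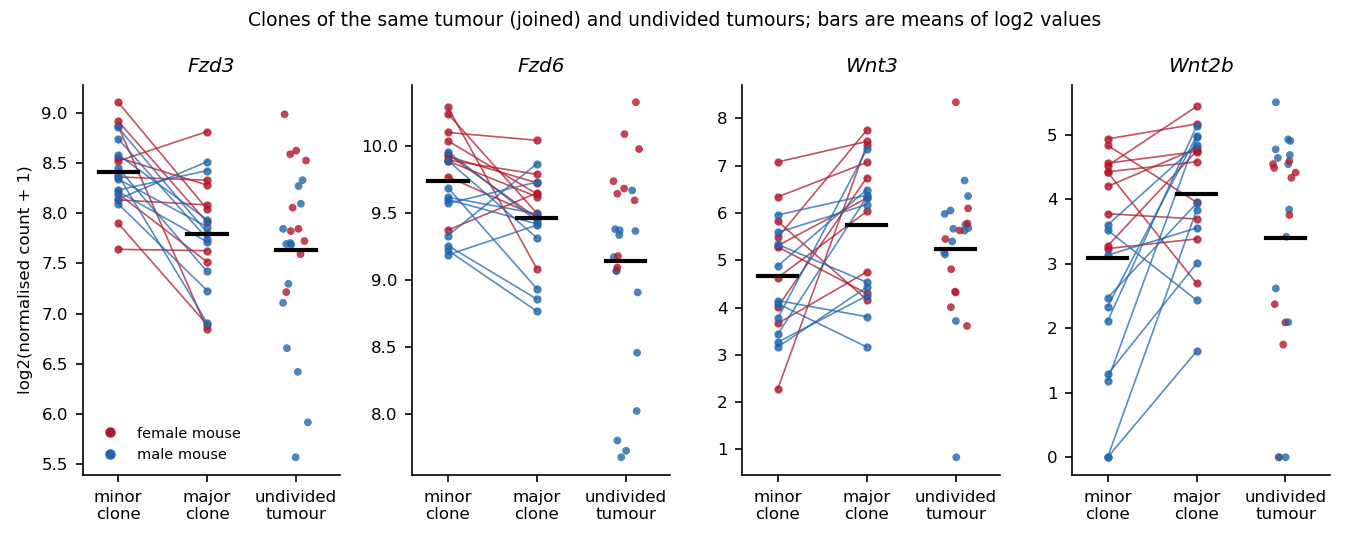
Fzd3, Fzd6, Wnt3 and Wnt2b as log2(normalised count + 1) in minor clones, major clones and undivided tumours, coloured by mouse. Lines join the clones of 1 tumour and black bars are means of the log2 values. Fzd3 falls from the minor to the major clone in 17 of 20 tumours and Wnt3 is higher in the major clone in 15 of 20.

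The ligands Wnt3 and Wnt2b had the largest differences between clones in size but did not pass. Wnt3 ranged from 7.97 to 214 normalised counts in the major clones (median 74.9) and from 3.87 to 134 in the minor clones (median 26.1), and was higher in the major clone in 15 of 20 tumours. The groups overlapped, and the log2 difference was 1.07 (SE 0.35, 95% interval 0.35 to 1.80, limma, adjusted p = 0.0861). Wnt2b ranged from 2.12 to 42.4 in the major clones (median 18.7) and from 0 to 29.6 in the minor clones (median 9.59). It was higher in the major clone in 16 of 20 tumours, with a log2 difference of 0.98 (SE 0.33, 95% interval 0.31 to 1.66, limma, adjusted p = 0.0908). Tumour 19 of the female mouse ran against both, with Wnt3 at 16.9 in the major and 55.6 in the minor clone and Wnt2b at 5.48 and 20.4. Without it the adjusted p was 0.0428 for Wnt3 and 0.0427 for Wnt2b, and the number of genes called over the whole table was 859 in place of 188. Neither gene was called in the other 19 omissions of 1 tumour, with adjusted p values up to 0.139 for Wnt3 and 0.159 for Wnt2b (limma).

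By segment, the Wnt3 gap was uneven without passing the test. In the 10 tumours with both clones from SI20, Wnt3 was higher in the major clone in all 10, by 0.43 to 3.57 on the log2 scale (mean 1.53). In the 7 tumours of SI10 it was higher in 3 and lower in 4, with differences from -1.66 to 2.73 (mean 0.07). The widest gap of all came from a tumour of SI30, with 172 in the major and 3.87 in the minor clone. The difference between segments was 1.46 (SE 0.58, 95% interval 0.25 to 2.67, limma, n = 17 tumours, p = 0.0203 before adjustment), with an adjusted p of 0.996. In this comparison 0% of all genes passed, 658 (4.00%) had an unadjusted p under 0.05, and of the 10 genes Wnt3 and Wnt6 did. The segments were therefore not shown to differ.

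By mouse, the Wnt2b gap was uneven, also without passing the test. In the male mouse it was higher in the major clone in 9 of 10 tumours (mean difference 1.87), among them tumours 26 (30.2 and 1.28), 25 (34.0 and 3.33) and 31 (13.2 and 0). In the female mouse it was higher in 7 of 10, with a mean of 0.10. The term for the difference, female minus male, was -1.77 (SE 0.55, 95% interval -2.91 to -0.62, limma, n = 20 tumours, p = 0.00421 before adjustment), with an adjusted p of 0.633. Here too 0% of all genes passed the threshold, 1257 (7.65%) had an unadjusted p under 0.05, and Wnt2b was the only one of the 10 genes that did. The 9 other genes had adjusted p values of 0.658 or more for this term, so a difference between mice was not shown for any of the 10.

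**Figure D3:**
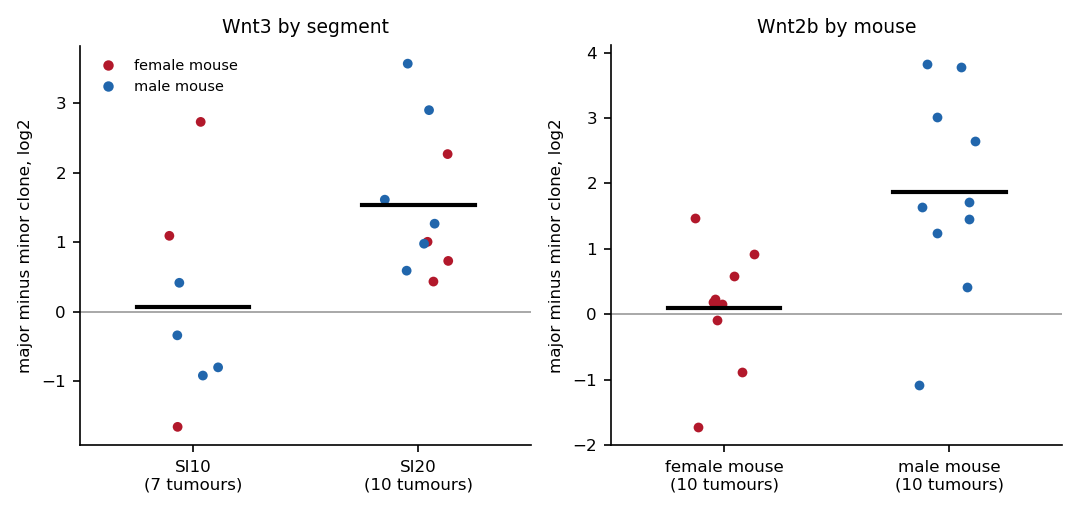
Difference between the major and the minor clone on the log2 scale, 1 point per tumour, for Wnt3 by segment (left) and Wnt2b by mouse (right). Black bars are means, and the grey line marks no difference. All 10 SI20 tumours lie above 0 for Wnt3, and 9 of 10 male tumours do for Wnt2b.

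The other 6 genes did not pass between clones. Fzd5, the most abundant receptor, was higher in the major clone in 13 of 20 tumours (log2 difference 0.24, SE 0.11, 95% interval 0.02 to 0.46, limma, adjusted p = 0.189). Fzd7 (0.02, 95% interval -0.15 to 0.20) and Lrp6 (0.03, 95% interval -0.09 to 0.15) had the narrowest intervals of the 10, so that a log2 difference beyond 0.20 lay outside both. Wnt6 was higher in 10 and lower in 10 tumours (-0.23, 95% interval -0.70 to 0.24). The SI30 tumours ran in opposite directions, with 94.6 in the major and 474 in the minor clone of tumour 29 and 602 and 169 in tumour 30. Wnt10a (0.21, 95% interval -0.22 to 0.63) and Wnt5a (0.09, 95% interval -0.33 to 0.50) had no common direction either, being higher in the major clone in 11 and 10 of 20 tumours.

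The median log2 difference between clones was 0.06 over the 10 genes and 0.01 over all genes tested. In the rest of the pathway no gene passed between clones: 0 of 8 other WNT ligands tested, 0 of 6 other Frizzled receptors, 0 of 5 other co-receptors and 0 of 17 WNT target genes such as Axin2 and Notum. Among the target genes 5 of 17 had a positive difference (median -0.10). Wnt11 (log2 difference -0.49, limma, adjusted p = 0.181) and Lgr4 (-0.16, limma, adjusted p = 0.198), which passed in another comparison, had unadjusted p values under 0.05 here.

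Several cell type markers moved in the same comparison, and in bulk RNA fewer cells of a type cannot be told apart from less RNA per cell. All 6 goblet cell markers were higher in the major clone (median log2 difference 0.56, 2 of 6 called), as were all 8 enterocyte markers (0.39, 1 called) and all 6 enteroendocrine markers (0.68, 2 called). Of the Paneth cell markers 9 of 10 were higher (0.49, 0 called) and of the fibroblast markers 9 of 10 (0.68, 0 called). All 6 smooth muscle markers (median 0.63) and all 7 immune markers (0.41) had positive differences, with 0 called. The summed Paneth markers spanned 44454 to 282767 in the major and 36813 to 447211 in the minor clones, and the summed goblet markers 99523 to 302461 and 27181 to 244880. None of the markers of these lists was at 0 in every library of a group. The 18S ribosomal RNA gene Rn18s took a median of 6.19% of the summed values in minor clones, against 1.24% in major clones and 3.11% in undivided tumours, and was the higher in the minor clone in 15 of 20 tumours. The clone differences of Fzd3 had an r of 0.15 with those of Rn18s (rho 0.10, permutation p = 0.545 and 0.684, 10 relations tested, adjusted p = 0.681 and 0.759, r = -0.10 without the 2 tumours farthest out). Wnt5a had an r of -0.50 (rho -0.40, permutation p = 0.0286 and 0.0910, r = -0.62 without 2 tumours). Wnt10a had an r of -0.43 (rho -0.52, permutation p = 0.0519 and 0.0241). None of the 10 passed after adjustment. The part of cell makeup and of the Rn18s share in these results was not tested.

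Compared with minor clones, undivided tumours had less Fzd3 and less Fzd6, 2 of the 10 genes against 3.70% of all 16491 genes tested. The minor clones were those of the paired comparison, so the 2 results for Fzd3 are not independent. Undivided tumours were also sequenced whole and clones as parts of a tumour, which cannot be told apart from the class. Fzd3 ranged from 46.4 to 506 in the 23 undivided tumours (median 210), against a lowest value of 199 in any minor clone. The log2 difference was -0.75 (SE 0.19, 95% interval -1.14 to -0.36, limma with mouse as covariate, adjusted p = 0.0252). Fzd6 ranged from 204 to 1282 (median 645), and its log2 difference was -0.55 (SE 0.15, 95% interval -0.85 to -0.25, limma, adjusted p = 0.0304). The groups overlapped for both genes, and the lowest values all came from the male mouse: 46.4, 59.4, 84.6 and 99.8 for Fzd3 and 204, 211, 222 and 259 for Fzd6. Within the male mouse alone the difference of Fzd3 was -1.13 (limma, adjusted p = 0.0268) and that of Fzd6 -0.77 (limma, adjusted p = 0.0552). Within the female mouse they were -0.32 (limma, adjusted p = 0.673) and -0.31 (limma, adjusted p = 0.586). Fzd3 kept its call when any 1 of the 43 libraries was left out. Fzd6 lost it without the minor clone of tumour 26 or of tumour 27 of the male mouse (adjusted p = 0.0530 and 0.0541), and with segment as a second covariate (adjusted p = 0.0508).

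The remaining 8 genes did not pass in this comparison. Lrp6 had a log2 difference of -0.14 (95% interval -0.28 to -0.0026, limma, adjusted p = 0.246), and Wnt5a of -0.48 (95% interval -1.11 to 0.14, limma, adjusted p = 0.401). Wnt3 stood at 0.58 (95% interval -0.23 to 1.38) and Wnt2b at 0.37 (95% interval -0.58 to 1.33), both with adjusted p values over the threshold. The median over the 10 genes was 0.00, against -0.01 over all genes. Elsewhere in the pathway, Wnt11, a non-canonical ligand, was lower in undivided tumours (log2 difference -1.31, SE 0.32, limma, adjusted p = 0.0206), as was Lgr4, a receptor of R-spondins that potentiates WNT signals (-0.33, SE 0.09, limma, adjusted p = 0.0295). None of the 17 WNT target genes passed, and all 17 had a negative difference (median -0.32). In the same comparison all 6 enteroendocrine markers were higher (median 0.94, 4 called) and all 8 enterocyte markers (0.44, 1 called), and all 7 immune markers had positive differences (0.52, 1 called, or 6 of 7 and 0 called after scaling to equal sums). The enterocyte markers had summed enterocyte markers of 197369 to 1781720 in undivided tumours and 120073 to 1257020 in minor clones.

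**Figure D4:**
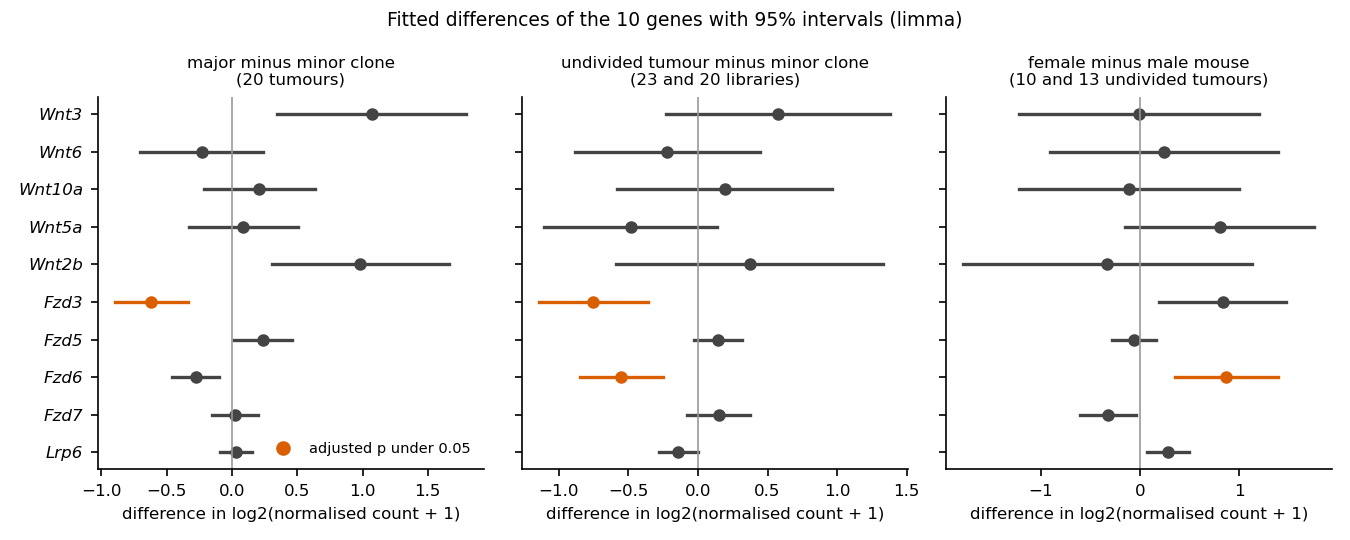
Fitted differences in log2(normalised count + 1) for the 10 genes with 95% intervals from limma: major minus minor clone (left), undivided tumour minus minor clone (middle) and female minus male mouse in undivided tumours (right). Orange marks an adjusted p under 0.05: Fzd3 on the left, Fzd3 and Fzd6 in the middle and Fzd6 on the right.

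None of the 10 genes passed between undivided tumours and major clones, where 0.0121% of all genes did (limma). The log2 difference was -0.13 for Fzd3 (95% interval -0.55 to 0.29) and -0.28 for Fzd6 (95% interval -0.59 to 0.03). Of the 10, Lrp6 had an unadjusted p under 0.05 (-0.18, 95% interval -0.33 to -0.03, limma, adjusted p = 0.358), as did 12.0% of all genes. In the female mouse alone the differences of Fzd3 and Fzd6 were of the other sign (0.26 and 0.04). All 10 fibroblast markers (median -0.80) and all 6 endothelial markers (-0.46) had negative differences, with 0 called. This comparison shares its undivided tumours with the one before, and its major clones with the paired comparison.

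Along the intestine none of the 10 passed either. In undivided tumours (12 of SI10, 11 of SI20) 0.170% of all genes did, and none of the 10 had an unadjusted p under 0.05, against 7.62% of all genes (limma). Wnt5a came nearest, with a log2 difference of 0.95, SI20 minus SI10 (95% interval -0.0017 to 1.89, limma, adjusted p = 0.656). In the divided tumours, taking the mean of both clones, 0.280% of all genes passed, and of the 10 only Lrp6 had an unadjusted p under 0.05 (0.26, 95% interval 0.07 to 0.45, limma, adjusted p = 0.246), as did 14.3% of all genes. The difference of Wnt3 was 0.87 (95% interval -0.04 to 1.78, limma, adjusted p = 0.360) in divided and 0.35 (95% interval -0.85 to 1.55, limma, adjusted p = 0.896) in undivided tumours. All 10 Paneth markers had positive differences in divided (median 1.50) and undivided tumours (0.98), as did all 10 fibroblast markers in undivided tumours (0.89), with 0 called. Among the other ligands, Wnt4 was lower in SI20 of undivided tumours (-1.51, SE 0.28, limma, adjusted p = 0.0221).

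Fzd6 was also the gene that differed between the mice. In the 10 undivided tumours of the female mouse it ranged from 535 to 1282 normalised counts (median 810), and in the 13 of the male mouse from 204 to 812 (median 536), so that the groups overlapped. The log2 difference, female minus male with segment as covariate, was 0.87 (SE 0.25, 95% interval 0.35 to 1.38, limma, adjusted p = 0.0185). It was called in each of the 23 fits that left out 1 tumour. Fzd3 lay the same way, from 147 to 506 (median 247) in the female and from 46.4 to 321 (median 205) in the male mouse (0.83, 95% interval 0.20 to 1.47, limma, adjusted p = 0.0592). Lrp6 (0.28, limma, adjusted p = 0.0528) and Fzd7 (-0.32, limma, adjusted p = 0.0956) also had unadjusted p values under 0.05, which makes 4 of the 10 genes against 33.3% of all genes. This comparison called 19.1% of all 16511 genes, so that 1 of 10 is no more than the background share. Wnt11 (1.50, limma, adjusted p = 0.0327), the co-receptor gene Ptk7 (1.15, limma, adjusted p = 0.0426), Znrf3, which removes Frizzled receptors from the surface (0.79, limma, adjusted p = 0.0370), and the target gene Ephb2 (0.41, limma, adjusted p = 0.0489) were higher in the female mouse, and Wnt4 was lower (-0.82, limma, adjusted p = 0.0445, and limma, adjusted p = 0.09995 with all libraries scaled to equal sums, which lost the call). Of the 17 target genes 15 had a positive difference (median 0.49), and 2 passed, Ephb2 and Znrf3. All 8 enterocyte markers were lower in the female mouse (median -1.31, 6 called), and so were all 6 enteroendocrine markers (-0.68, 3 called) and 5 of 6 goblet markers (-0.71, 3 called). All 6 endothelial markers were higher there (median 1.15, 4 called), and so were 9 of 10 fibroblast markers (0.70, 0 called). Across the undivided tumours, centred within mouse, the r with the endothelial list was 0.05 for Fzd6 (rho 0.01) and 0.08 for Fzd3 (rho 0.03). The part of these cell types in the difference of Fzd6 was not tested.

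Whether the clones of a tumour share a level was tested for each gene, with values centred within mouse. Only Wnt10a passed, with a Pearson r of 0.68 (rho 0.69, n = 20 tumours, permutation p = 0.00115 and 0.00127, adjusted over 10 genes p = 0.0115 and 0.0127). The r was 0.52 without the 2 tumours farthest from the median, 0.80 in the female and 0.66 in the male tumours (10 each). Values were not centred within segment. The median of Wnt10a was 84.3 in SI10 and 43.8 in SI20 major clones, and 77.0 and 37.2 in minor clones. The part of segment in this relation was not tested. Lrp6 had an r of 0.48 (rho 0.55, permutation p = 0.0203 and 0.0141, adjusted p = 0.102 and 0.0705, r = 0.32 without 2 tumours). For Fzd6 (r = 0.02, rho 0.0045, adjusted permutation p = 0.954 and 0.987) and Fzd3 (r = 0.11, rho 0.12, adjusted permutation p = 0.843 and 0.793) no relation was detected.

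Of the ligands, Wnt3, Wnt5a and Wnt2b moved with cell type markers across undivided tumours. Over 110 relations of the 10 genes with 11 marker lists in the 23 undivided tumours, centred within mouse, 11 had an adjusted p for r under 0.05 and 9 for rho. Wnt3 moved with the Paneth cell list (r = 0.82, rho 0.76, permutation p = 2e-05 and 7e-05, adjusted p = 0.0011 and 0.00385). The r was 0.75 without the 2 tumours farthest out, 0.84 in the female (10 tumours) and 0.80 in the male mouse (13). The lowest Wnt3 value in undivided tumours was 0.784 in tumour 4 of the male and the highest 323 in tumour 5 of the female mouse. In the clone differences, the same relation was weaker and did not pass (r = 0.45, rho 0.48, permutation p = 0.0513 and 0.0410, adjusted p = 0.297 and 0.282, r = 0.39 without 2 tumours), with r = 0.75 in the female and 0.10 in the male tumours. Wnt3 also passed with the immune list (r = 0.69, adjusted permutation p = 0.0412), but its rho was 0.38 (adjusted p = 0.323) and its r was 0.04 without 2 tumours, so that this relation rests on those.

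Wnt5a moved with the fibroblast list in both sets of libraries. In undivided tumours r was 0.69 (rho 0.73, permutation p = 0.00068 and 0.00027, adjusted p = 0.0107 and 0.00594, 0.82 without 2 tumours, 0.56 in the female and 0.73 in the male mouse). In the clone differences it was 0.83 (rho 0.80, permutation p = 4e-05 and 7e-05, adjusted p = 0.0044 and 0.0077, 0.77 without 2 tumours, 0.92 in the female and 0.74 in the male mouse), and it was the only one of 110 relations there with an adjusted p for r under 0.05. By rank, Wnt5a also passed there with the subepithelial fibroblast (rho 0.71, adjusted permutation p = 0.0443) and smooth muscle lists (rho 0.69, adjusted permutation p = 0.0443), where its r of 0.69 and 0.60 did not (adjusted permutation p = 0.0643 and 0.114). Wnt5a had an r of 0.71 with the endothelial list as well (rho 0.76, adjusted permutation p = 0.0066 and 0.00594) in undivided tumours.

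Wnt2b passed with 5 lists by r in undivided tumours, and with 4 of them by rank. The highest r was with the subepithelial fibroblast list (0.82, rho 0.66, adjusted permutation p = 0.0011 and 0.0179, 0.69 without 2 tumours, 0.83 in the female and 0.82 in the male mouse), of which 3 of 4 genes were measured at a mean of at least 10. The fibroblast (r = 0.71), smooth muscle (0.71), immune (0.68) and enterocyte (0.64) lists followed. The enterocyte relation did not pass by rank (rho 0.51, adjusted permutation p = 0.115), and the other 3 did. In the clone differences none of its 11 relations passed, and the r with subepithelial fibroblasts was 0.44 in the female and -0.08 in the male tumours.

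The receptor Fzd6 ran against several epithelial lists, the general one among them. In undivided tumours its r was -0.57 with enterocytes (rho -0.63, permutation p = 0.00149 and 0.00093, adjusted p = 0.0193 and 0.0171) and -0.56 with goblet cells (rho -0.58, adjusted permutation p = 0.0266 and 0.0394), and was -0.68 and -0.66 without 2 tumours. Within the female and the male mouse the r was -0.60 and -0.65 for enterocytes and -0.61 and -0.64 for goblet cells. In the clone differences the values were -0.61 (rho -0.61, adjusted permutation p = 0.114 and 0.121) and -0.54 (rho -0.51, adjusted permutation p = 0.172 and 0.226). With the general epithelial list the r of Fzd6 was -0.50 in undivided tumours (adjusted permutation p = 0.167, -0.51 without 2 tumours). It was -0.61 in clone differences (adjusted permutation p = 0.114, -0.25 without 2 tumours). Fzd3 had no relation with an adjusted p for r under 0.05 (lowest adjusted p = 0.0532, r = -0.60, with the epithelial list in undivided tumours). Its rank correlation with the endothelial list in clone differences passed (rho 0.69, adjusted permutation p = 0.0443), while its r there did not (0.59, adjusted p = 0.114). In undivided tumours that relation was not seen (r = 0.08, rho 0.03, adjusted permutation p = 0.946 and 0.956). Libraries share their scaling and their makeup of cells in all of these relations, and the part of either was not tested.

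**Figure D5:**
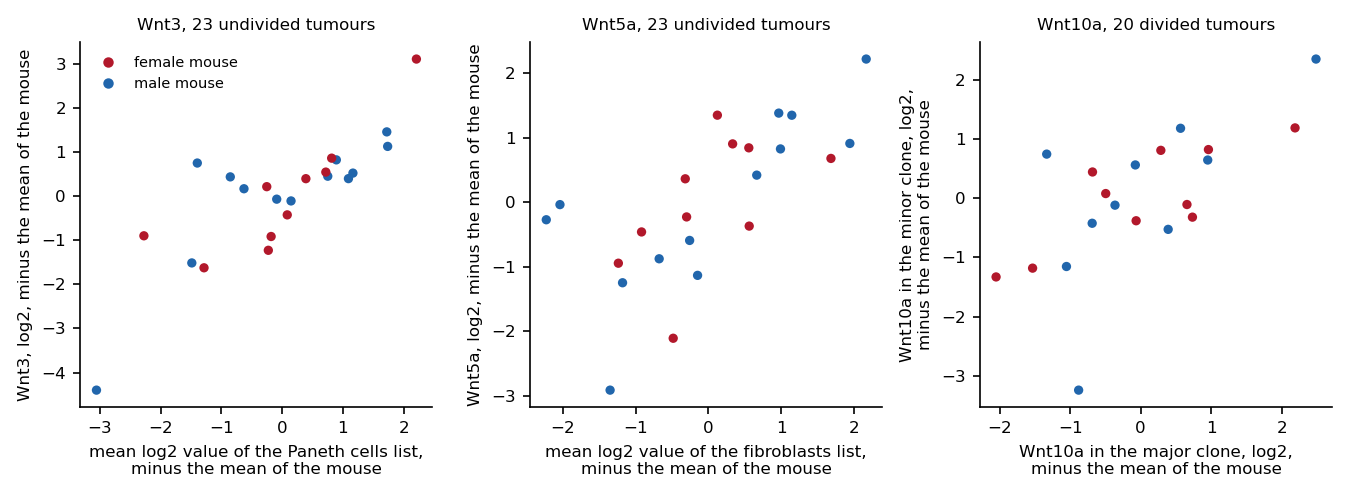
Wnt3 against the mean of the Paneth cell list and Wnt5a against the mean of the fibroblast list in 23 undivided tumours, and Wnt10a in the minor against the major clone of 20 divided tumours, each in log2 with the mean of its mouse subtracted. Points rise together in all 3 panels, with r of 0.82, 0.69 and 0.68.

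For each of the 10, the 3 genes with the most similar pattern over the 23 undivided tumours were taken by Pearson's r, centred within mouse. Nearest to Wnt3 were Ang4 (r = 0.89), Defa3 (0.88) and Defa17 (0.88), antimicrobial products of Paneth cells, with r of 0.62, 0.62 and 0.61 in the 20 clone differences, of which Ang4 and Defa17 also stand in the Paneth list. For Wnt10a they were the WNT ligand genes Wnt9b (0.85) and Wnt5b (0.77) and then Ky (0.77), with 0.21, 0.50 and 0.12 in clone differences. Wnt9b was near the floor, with a median normalised count of 6.90 in undivided tumours. Wnt6 was most like Timp2 (0.91), Zfp128 (0.83) and Lect2 (0.82), with 0.18, 0.44 and 0.84 in clone differences. Wnt5a was nearest to Itpripl2 (0.89), Eml1 (0.87) and the basement membrane collagen gene Col4a2 (0.86), with 0.24, 0.41 and 0.55 in clone differences. Wnt2b was nearest to Tgfb1i1 (0.88), the gut mesenchyme factor gene Nkx2-3 (0.86) and Cacng7 (0.86), with 0.11, 0.35 and -0.15. Among the receptors, Fzd3 was nearest to Zfp449 (0.83), Slc9a7 (0.82) and Rsbn1l (0.81), with 0.48, 0.42 and 0.66 in clone differences, and Fzd6 to Zfp451 (0.88), Rfx7 (0.84) and Gtf2i (0.84), with 0.39, 0.52 and 0.58. Of the genes nearest to Fzd5, Tmed7 (0.82) and Slc52a3 (0.82) are given, with -0.18 and 0.27 in clone differences. Fzd7 was nearest to Rhoq (0.85), Herpud2 (0.78) and Xrn1 (0.77), with 0.03, 0.06 and 0.69 in clone differences, and Lrp6 to A530017D24Rik (0.80), Gm7292 (0.78) and Peg10 (0.77), with 0.04, 0.35 and 0.63.

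Among the 10 genes themselves, the adjacent Wnt6 and Wnt10a had the highest r of the 45 pairs in both sets, 0.75 in undivided tumours and 0.67 in clone differences. In clone differences the lead was slight (0.6730), with Fzd3 and Fzd6, on chromosomes 14 and 15, at 0.6703. Among undivided tumours, tumour 3 of the female mouse was the highest for both, at 1567 for Wnt6 and 550 for Wnt10a, and tumour 7 of the female mouse the lowest, at 26.6 and 9.36. Wnt6 ran against Fzd5, with r of -0.57 and -0.53. These values are descriptions across tumours of 2 mice and carry no test.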

How the data were processed

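RNA of 63 dissected tumour samples was sequenced as stranded polyA libraries. Per the labels and the methods, the authors trimmed reads with Trimmomatic 0.39 and checked them with FastQC 0.11.9, aligned with STAR 2.7.7a, used Picard 2.27.3 and quantified genes with Salmon 1.9.0 on GRCm39. The authors deposited 1 table of normalised counts, a scaled signal that is not whole numbers, for 24766 genes (678 without symbol). DESeq2 is named in the submitters' notes, and how the values were scaled was not given further in the sources used here, nor was the read depth. Classes of major and minor clones were taken from the study's source data, since GEO's labels do not give them. Undivided tumours are those whose title has no clone letter.

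Values were taken as log2(value + 1), so that differences of low genes are understated. Genes with a mean of at least 10 in the libraries compared were tested in limma 3.58.1 (R 4.3.3) with trend, and p values were adjusted by Benjamini-Hochberg over all genes tested (threshold 0.05). All 10 genes passed this filter in every comparison. The tumour was the block between clones, mouse the covariate for undivided tumours against clones and for segments, and segment that for mice. Replicates are tumours of 2 mice, so p values measure the spread between tumours. The pairing comes from the titles, by which both clones share a tumour. In tumour 22 of the female mouse the segment labels of the clones differ (SI20 and SI10). Deviations of the clones of a tumour from their group means had an r over genes of 0.03 to 0.62 (median 0.26, over 0.1 in 17 of 20 tumours). The partner given by the title was the best match in only 9 of 20 tumours, so the pairing rests on the titles. Relations across tumours used Pearson's r and Spearman's rho with 100000 permutations within mouse, two-sided, adjusted over each family. Likeness to other genes was Pearson's r centred within mouse, and the 3 nearest genes were named. The text names all 10 genes, the genes of 8 WNT pathway lists with an adjusted p under 0.05 and markers of 11 cell type lists. The 10 genes and the lists were chosen with earlier results of these data known. Wnt1, Wnt3a, Wnt8a, Wnt16 and Rspo2 were listed for the pathway and not analysed here. The fits were run on these libraries with shuffled labels and some genes raised by a known fold. The condition checked was the fitted size of that fold. Alternatives covered the pseudocount (0.1 and 5), the filter (none, and a minimum mean of 50), quantile and equal-sum scaling, limma without trend, the block, a rank test, each mouse, the segments and leaving out each tumour or library. Of the genes most like each member, 1 is not reported here.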

Additional observations from a re-analysis of the deposited data

How the results depend on the processing

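Of 751 recomputed differences of the 10 genes, 699 kept their direction and their side of the threshold, 10 lost a call, 5 gained one and 37 changed sign, none of them a called value. Between clones, 1 gene was called, and 0 without the replicate block, in the exact Wilcoxon signed-rank test, without SI30 and the tumour with 2 segment labels, and in the female or the male mouse alone (limma in all but the rank test). Against minor clones, undivided tumours had 2 calls, and 1 with segment as a covariate, in SI10 and SI20 only or in the male mouse alone, and 0 in the female mouse alone. Between mice, 1 call became 2 with a mean of at least 50, quantile normalization or no segment covariate and 3 after scaling all libraries to equal sums. Leaving out 1 tumour or library gave 0 to 3 calls between clones, 1 to 2 for undivided tumours against minor clones and 1 to 2 between mice. With equal sums, 6 relations between genes and lists in clone differences passed by r in place of 1. The cause was not tested for any of these.

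Of the 37 changes of sign, 15 were among the differences given or plotted above. They were those of Lrp6 between clones with quantile normalization (-0.0041), Fzd7 without SI30 and the tumour with 2 segment labels (-0.0146), and, in the female mouse alone, Wnt5a (-0.29), Fzd7 (-0.0276) and Lrp6 (-0.0511) between clones, Wnt2b (-0.98) and Fzd5 (-0.0147) against minor clones, Fzd3 (0.26) and Fzd6 (0.0401) against major clones, and Wnt3 between segments of undivided tumours (-0.73). Between mice they were Wnt3 with a pseudocount of 0.1 (0.0475), no segment covariate (0.0049) or equal sums (0.19), and Wnt10a (0.0870) and Fzd5 (0.14) with equal sums. Equal sums moved the median of all genes from -0.01 to -0.11 for undivided tumours against minor clones, where the share of calls that were higher went from 61.5% to 36.7%, and from 0.05 to 0.25 between mice (46.2% to 77.9%). Quantile normalization moved that share between clones from 58.5% to 38.7%. Under both scalings Fzd3 and Fzd6 kept their direction in every comparison given above, as did the 8 enterocyte markers between mice and the 17 target genes in undivided tumours against minor clones. Leaving out 1 tumour moved the number of genes called between clones from 188 to as few as 25 (without tumour 20 of the male mouse) and as many as 859 (without tumour 19 of the female mouse). With tumours from 2 mice, a finding could not be set against the spread between mice.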
